A study of Mus musculus with 24 samples.

Results

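The genes *Arg1*, *Nos2*, *Acod1*, *Mrc1*, *Cd163*, *Folr2*, *Chil3*, *Retnla* and *Spp1* serve as readouts of how a mouse macrophage is polarized. Their 9 rows were taken by gene symbol from a matrix of 32285 genes and were followed in cells gated as macrophages and monocytes, and outside those gates, by treatment and by tumor preparation. Macrophages that sense interferon-γ or bacterial products make nitric oxide from arginine with the enzyme NOS2 and itaconate with the enzyme encoded by *Acod1*, a state called classical activation. Macrophages that sense IL-4 or IL-13, which signal through STAT6, express arginase 1, which turns the same arginine into ornithine, together with the mannose receptor *Mrc1* (CD206) and the secreted proteins *Chil3* (Ym1) and *Retnla* (RELMα). The hemoglobin scavenger receptor *Cd163* and the folate receptor *Folr2* are used as markers of tissue-resident macrophages, and *Spp1* encodes osteopontin, a secreted matrix protein found in many tumor-associated macrophages.

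The libraries came from Panc02 tumors, a mouse pancreatic cancer line grown under the skin of the flank of wild-type male C57BL/6 mice aged 6 to 7 weeks. The 8 treatments were Isotype Control, each antibody alone (Anti-PD-1 or Anti-CTLA-4), both antibodies (Anti-PD-1 + Anti-CTLA-4), and PancVAX given alone, with Anti-PD-1, with Anti-CTLA-4 or with both. PancVAX is a vaccine of synthetic tumor neoantigen peptides given with an adjuvant and a STING agonist, so an effect of PancVAX joins peptides and adjuvants. Anti–PD-1 and anti–CTLA-4 are checkpoint-blocking antibodies. By the labels, vaccine was given on days 12 and 19, anti–CTLA-4 (100 μg) on days 15 and 22, anti–PD-1 (100 μg) repeatedly from day 12, and tumors were taken on day 38. Each treatment gave 1 library from dissociated whole tumor and 1 from cells enriched for immune cells on Percoll, 16 libraries in all. Tumors were pooled within a treatment, and the preparations were sequenced in 2 batches, so preparation and batch cannot be told apart. A treatment pool below is the sum of its 2 libraries, and each agent was compared in 4 pools with it and 4 pools without it. Neither preparation of a treatment was repeated, and the sources do not say whether both came from the same tumors. P values therefore measure the spread between pools, which carry different partner treatments, except where stated below. Barcodes were assigned to treatments by the library number they carry, read as the number in the sample description, a match that the labels do not spell out.

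The libraries held 5743 to 11979 barcodes and (77.1 to 176) × 1000000 transcript molecules counted by unique molecular identifier (UMI), and 57355 of 144994 barcodes passed the limits on genes, UMIs and mitochondrial reads. Gates were set with marker genes other than the 9 genes. A mononuclear phagocyte needed at least 3 UMIs from at least 2 genes of a list that included *Csf1r*, *Fcgr1*, *Adgre1*, *Ms4a7*, *Ms4a6c* and *Ms4a6d*, or at least 5 UMIs of the complement C1q genes with 1 of the list. The macrophage gate (12282 cells) had at least 5 C1q UMIs, the monocyte gate (505 cells) had fewer and a UMI of *Ccr2*, and the other mononuclear phagocyte gate held the remaining 395 cells. Genes not used for gating sorted with the names. *Apoe*, abundant in tumor macrophages, was 13704 counts per 1000000 UMIs (CPM) in the macrophage gate and 2568 in the monocyte gate, while the inflammatory monocyte genes *Ly6c2* and *Plac8* were 27.8 and 153 CPM in the macrophage gate against 965 and 2845 CPM in the monocyte gate. A pool gave 1289 to 1838 macrophages but 31 to 78 monocytes, which makes every monocyte value less precise. The Percoll library of PancVAX + Anti-PD-1 stood apart with 7413 passing cells, the most of any library, and 95 barcode sequences (0.780% of those of macrophages) were found in more than 1 library. Because the kit reads one end of each transcript and levels are not scaled to length, a CPM is compared between gates or samples for 1 gene and not between genes.

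The 9 genes differed in the gate where they were highest. *Mrc1*, *Folr2*, *Cd163* and *Retnla* were higher in the macrophage gate than in the monocyte gate. *Chil3*, *Arg1*, *Acod1* and *Spp1* were higher in the monocyte gate. The 5 genes that passed the filter on low counts in both gates, *Mrc1*, *Chil3*, *Arg1*, *Acod1* and *Spp1*, passed the threshold (adjusted P below 0.05 and a log2 fold change beyond 0.5 in edgeR, with the pool as a block), where the background was 33.4% of 4350 genes that passed the filter in both. *Folr2*, *Cd163* and *Retnla* passed the filter through the macrophage gate alone, where they were higher, so their levels are given without a test, and *Nos2* had 1 UMI in the monocyte gate. The same filter kept *Acod1*, *Chil3* and *Spp1* in the neutrophil gate (5142 cells), and the 3 genes were higher there than in macrophages and passed the threshold, where the background was 60.6% of 7003 such genes.

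**Figure D1:**
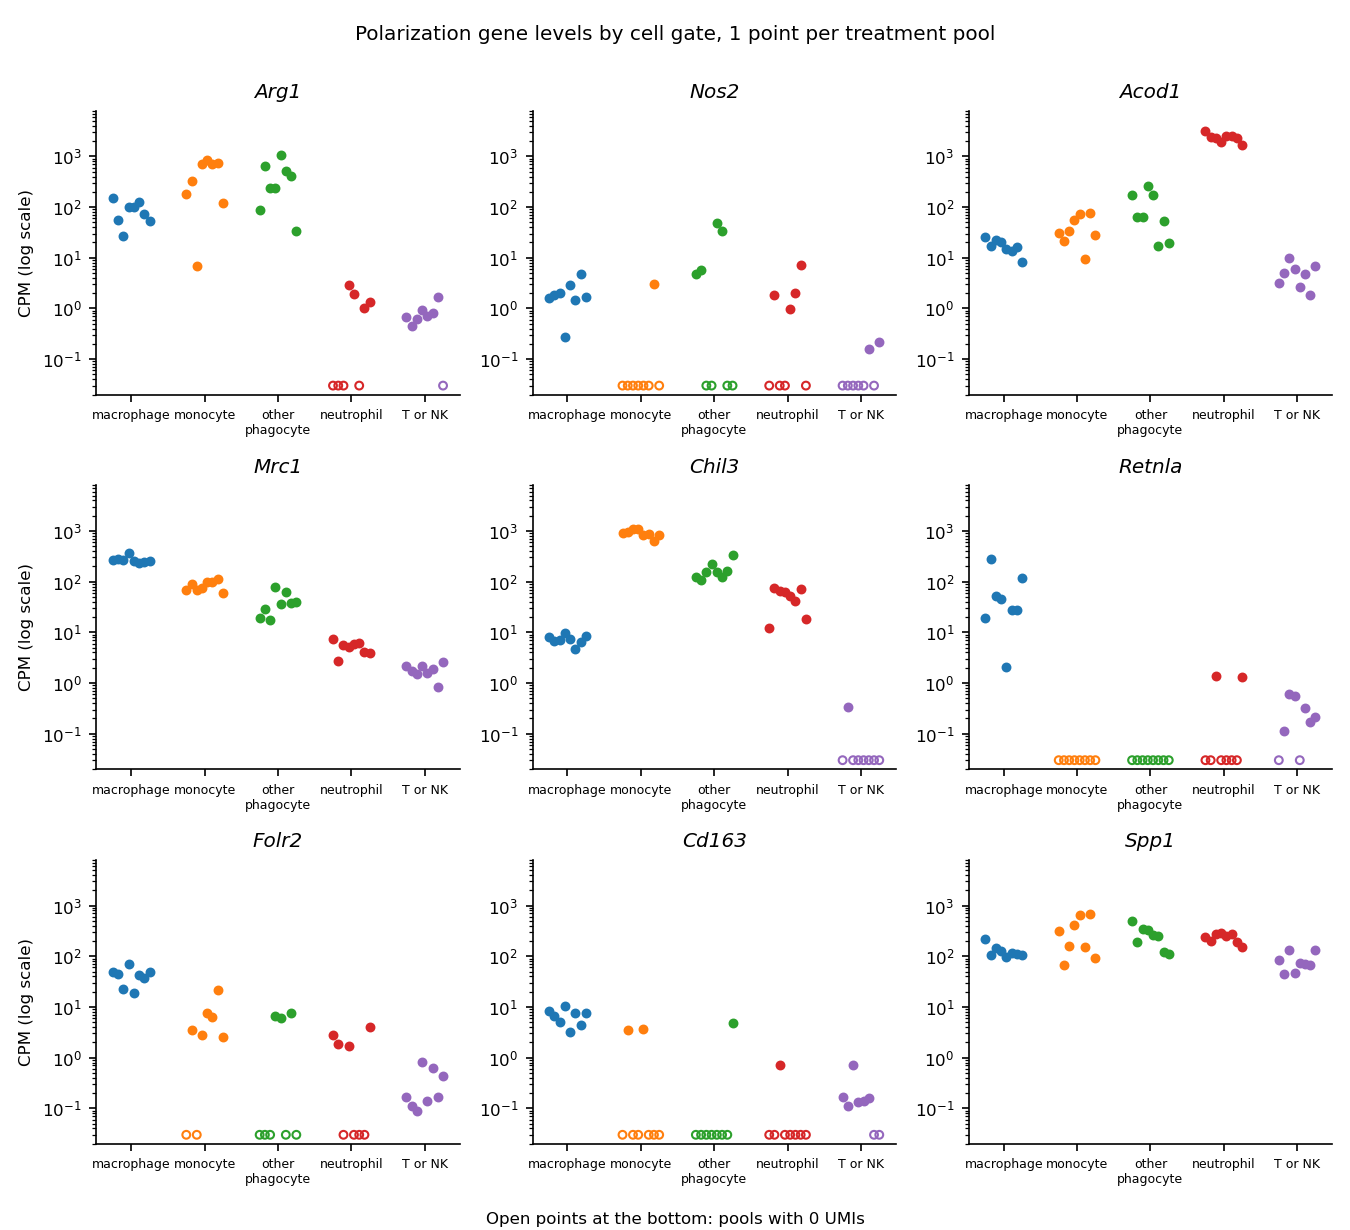
Level of each of the 9 genes (CPM, log axis) in 5 cell gates, with 1 point for each of the 8 treatment pools and open points for pools with 0 UMIs. *Chil3* lay highest in the monocyte gate (623 to 1106 CPM), *Acod1* in the neutrophil gate (1693 to 3167 CPM) and *Mrc1* in the macrophage gate (238 to 372 CPM).

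Arginase 1 transcripts were found in few macrophages. *Arg1* (chr10:24915207-24927470, GRCm38.p6) averaged 85.0 ± 40.8 CPM in the macrophage gate (SD, n = 8 pools) and 457 ± 334 CPM in the monocyte gate, and the log2 difference was −2.29 (SE 0.18, adjusted P = 9.6e-16). The other mononuclear phagocytes, at 404 ± 336 CPM, overlapped the monocytes. The pools ranged from 26.98 to 151 CPM in macrophages and from 6.82 to 861 CPM in monocytes, so the gates overlapped. The test compared the gates within each pool. Macrophages were higher in the PancVAX + Anti-PD-1 pool (26.98 against 6.82 CPM) and lower in the others. The SE and P of the log2 difference therefore do not measure the spread between pools. After each cell was thinned to 1000 UMIs, 2.70% of macrophages and 10.9% of monocytes had an *Arg1* UMI, against 0.112% of T and NK cells, which should lack it. Median depth before thinning was 3750, 4745 and 3588 UMIs in these gates. In monocytes the signal rested on few cells, since 9 of 505 cells held at least 50% of the 1137 *Arg1* UMIs. Neutrophils and T or NK cells had 1.05 and 0.733 CPM. The second arginase gene, *Arg2*, was instead at 264 CPM in neutrophils and 3.32 CPM in macrophages.

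*Nos2* (chr11:78920787-78960226), the enzyme that competes for the same arginine, was close to the limit of detection. The macrophage gate held 108 *Nos2* UMIs in 60 of 12282 cells, or 2.06 ± 1.33 CPM over pools. The level in other mononuclear phagocytes was 11.1 CPM from 16 UMIs, too few to rank the gates by pool. Neutrophils had 11 *Nos2* UMIs (1.28 CPM). Against neutrophils *Nos2* passed the filter on low counts through the macrophage gate alone, so this level is given without a test.

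*Acod1* (chr14:103047012-103056573) was in these tumors a neutrophil transcript. It reached 2374 ± 439 CPM in the neutrophil gate against 17.3 ± 5.39 CPM in the macrophage gate, a 137-fold difference over all cells (log2 difference −7.25, SE 0.10, adjusted P = 5.4e-31). A UMI was found in 64.7% of thinned neutrophils, 3.76% of monocytes and 1.44% of macrophages, with 0.476% in T and NK cells. Monocytes were 2.44-fold higher than macrophages (log2 difference −1.28, SE 0.22, adjusted P = 4.9e-06), and the other mononuclear phagocytes averaged 104 ± 88.8 CPM, a spread that overlapped both. That gate also had the neutrophil genes *S100a8* and *S100a9* at 913 and 1515 CPM, in 13.4% and 12.9% of its cells, against 124 and 46.8 CPM in monocytes and 36.6 and 57.0 CPM in macrophages, and their part in its *Acod1* level was not tested.

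The mannose receptor gene *Mrc1* (chr2:14229414-14332023) was the gene found in the most macrophages. It was 270 ± 43.1 CPM in the macrophage gate and 83.5 ± 17.7 CPM in the monocyte gate, and the 8 macrophage pools, from 238 CPM upward, lay above the highest monocyte pool at 110 CPM. The log2 difference was 1.71 (SE 0.11, adjusted P = 4.6e-19). A UMI was seen in 47.5% of macrophages, and in 19.1% after thinning, against 6.73% of monocytes and 0.161% of T and NK cells.

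The resident-type receptors *Folr2* (chr7:101839988-101857190) and *Cd163* (chr6:124304636-124330529) followed *Mrc1*. *Folr2* was 41.5 ± 15.8 CPM in macrophages and 5.52 ± 6.97 CPM in monocytes, a 6.93-fold difference over all cells that rests on 14 monocyte UMIs. *Cd163* was 6.66 ± 2.32 CPM in macrophages. The monocyte gate held 2 *Cd163* UMIs, which is too few for a fold difference. Thinned macrophages carried *Folr2* in 2.52% and *Cd163* in 0.489% of cells.

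*Chil3* (chr3:106147554-106167564), a chitinase-like protein without enzyme activity, was the strongest monocyte transcript of the set relative to macrophages. It was 903 ± 156 CPM in the monocyte gate and 7.34 ± 1.52 CPM in the macrophage gate, 121-fold apart over all cells (log2 difference −6.91, SE 0.096, adjusted P = 3.6e-49). The lowest monocyte pool had 623 CPM and the highest macrophage pool 9.90 CPM. Other mononuclear phagocytes (174 ± 75.0 CPM) and then neutrophils (49.8 ± 23.6 CPM) came between, and their pools did not overlap. A UMI was present in 37.8% of thinned monocytes, 0.423% of macrophages and 0.0070% of T and NK cells.

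*Retnla* (chr16:48842609-48844461), which encodes the secreted protein RELMα, was counted in macrophages and not in monocytes. The macrophage gate held 3616 *Retnla* UMIs (67.5 CPM) and the monocyte gate none in any pool. Because few macrophages carried *Retnla*, 0 UMIs in 505 monocytes set no lower limit on the fold difference. With no upper limits on genes and UMIs the fitted log2 difference was 0.46 (adjusted P = 0.607). Only 75 macrophages had a *Retnla* UMI. The highest cell had 733 of them and 6 cells held at least 50%. *Retnla* was not confined to the macrophage gate. Among the 10244 cells that met no gate, 19 held 515 *Retnla* UMIs (17.4 CPM), with up to 118 in a cell.

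Both secreted genes have a near copy on the same chromosome, and how the counting treated reads that match both copies was not tested. *Retnlg*, whose UMIs helped to define the neutrophil gate, was 1227 CPM in neutrophils, 1.01 CPM in macrophages and 0 in monocytes. *Chil4* had 0 UMIs in all 10 gates, which includes the monocytes with 2094 *Chil3* UMIs. The 250 bases before each start are shown because the members of a pair resemble each other there while the transcripts were counted in different cells, or for *Chil4* in none. They are from RefSeq (GRCm38.p6), and capitals mark matches to TTCNNNNGAA (a STAT6-type motif) or TTGCNNAA (a C/EBP-type motif) on either strand. The windows are chr16:48842359-48842608 (plus strand), chr16:48872358-48872607 (plus strand), chr3:106167565-106167814 (minus strand) and chr3:106219480-106219729 (minus strand) in this order.
Retnla: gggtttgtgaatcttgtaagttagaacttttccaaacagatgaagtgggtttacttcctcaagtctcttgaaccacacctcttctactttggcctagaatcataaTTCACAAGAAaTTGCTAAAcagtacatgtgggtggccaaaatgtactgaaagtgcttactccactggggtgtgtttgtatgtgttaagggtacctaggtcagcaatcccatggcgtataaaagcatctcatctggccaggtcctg
Retnlg: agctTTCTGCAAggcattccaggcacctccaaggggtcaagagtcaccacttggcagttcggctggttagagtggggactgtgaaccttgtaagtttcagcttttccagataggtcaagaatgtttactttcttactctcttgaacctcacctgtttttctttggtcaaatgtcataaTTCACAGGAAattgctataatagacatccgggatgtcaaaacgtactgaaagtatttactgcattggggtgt
Chil3: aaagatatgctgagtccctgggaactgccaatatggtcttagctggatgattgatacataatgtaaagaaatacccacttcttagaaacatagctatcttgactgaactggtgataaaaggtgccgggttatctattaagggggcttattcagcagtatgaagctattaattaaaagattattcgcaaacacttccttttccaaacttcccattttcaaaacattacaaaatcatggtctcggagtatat
Chil4: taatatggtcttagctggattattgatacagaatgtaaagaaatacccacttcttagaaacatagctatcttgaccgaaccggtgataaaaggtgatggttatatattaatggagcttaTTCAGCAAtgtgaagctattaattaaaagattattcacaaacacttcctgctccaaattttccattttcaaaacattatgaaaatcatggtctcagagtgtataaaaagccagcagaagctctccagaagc
The aligned parts were identical at 78.9% of 175 bases for *Retnla* and *Retnlg* and at 91.0% of 221 bases for *Chil3* and *Chil4*. *Retnla* had the 10-letter motif as TTCACAAGAA, 145 bases before its start, and *Retnlg* had it as TTCACAGGAA, 72 bases before its start. The 8-letter motif stood in *Retnla* as TTGCTAAA, 134 bases before its start, and in *Retnlg* as TTCTGCAA, 246 bases before its start. *Chil4* had it as TTCAGCAA, 131 bases before its start, and the *Chil3* window held neither motif. Among 32851 windows of this length, 5.85% held the STAT6-type and 9.56% the C/EBP-type letters, so a match describes the sequence and does not show binding. An upstream sequence was at hand for 7 of the 9 genes.

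*Spp1* (chr5:104435111-104441053) was mostly a transcript of cells that are not leukocytes. It was 1190 ± 378 CPM in the non-immune gate, 315 ± 244 CPM in monocytes, 266 ± 130 CPM in other mononuclear phagocytes, 234 ± 48.2 CPM in neutrophils and 127 ± 38.4 CPM in macrophages. The 3 middle gates overlapped one another. The macrophage level was below the monocyte level (log2 difference −1.15, SE 0.19, adjusted P = 2.6e-06), a call that DESeq2 did not make (adjusted P = 0.100). T and NK cells had 82.7 CPM and a UMI in 5.05% of thinned cells, against 7.85% of macrophages, so the macrophage level was 1.51-fold that of lymphocytes. The T and NK level ranged from 34.4 to 210 CPM over libraries.

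The cytokines that drive these programs were also read by gate. *Ifng* was 180 CPM in T and NK cells and 0.634 CPM in macrophages. *Il4* and *Il13* were 0.401 and 2.48 CPM in T and NK cells, with 1 and 0 UMIs in the macrophage gate. The neutrophil gate had 23 *Il4* UMIs (2.68 CPM) in 0.0389% of its cells. Lists of related genes were counted over the genes that passed the filter on low counts in both gates, where 511 of 4350 genes were higher in macrophages and 940 higher in monocytes. Of 6 resident-type macrophage genes 3 were higher in the macrophage gate and 1 was lower (median log2 difference 0.66, against −0.06 over the 4350 genes). Hypoxia and matrix genes went the other way, with 14 of 19 higher in monocytes and 1 higher in macrophages (median −1.09). Of 14 classical activation genes 2 were higher in macrophages and 6 higher in monocytes, and of 11 alternative activation genes 1 and 5. For arginine and polyamine metabolism the counts were 1 and 5 of 12. Of 21 receptors and transcription factors 0 were higher in macrophages and 9 higher in monocytes (median −0.35).

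Within the macrophage gate the genes differed in how many cells carried them. *Mrc1* UMIs were spread over 5837 cells, of which 1198 held at least 50% of the counts. *Arg1* was found in 633 cells and 54 held at least 50%, *Spp1* in 2097 cells and 177, *Folr2* in 781 cells and 104, *Acod1* in 492 cells and 99. The scarcest distributions were *Chil3* (152 cells, 24 holding at least 50%), *Cd163* (140 cells, 19), *Nos2* (60 cells, 14) and *Retnla* (75 cells, 6). The 10 highest cells held 71.0% of all *Retnla* UMIs, against 17.2% for *Arg1* and 1.96% for *Mrc1*. Of these 10 *Retnla* cells, 4 came from the Percoll library of PancVAX + Anti-PD-1 + Anti-CTLA-4 and held 34.98% of the gate's *Retnla* counts. A *Retnla* level per pool therefore depends on a few cells.

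**Figure D2:**
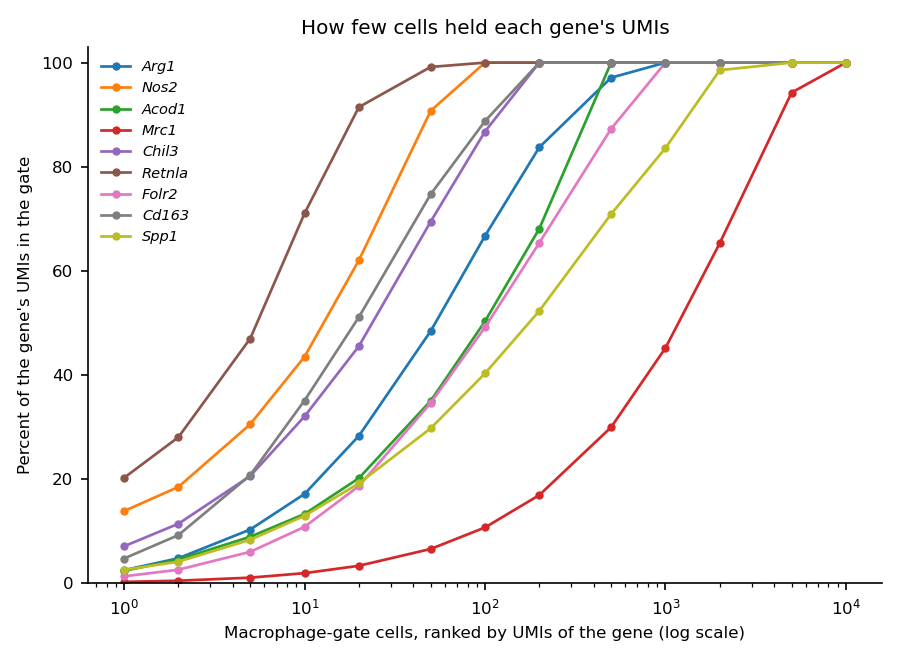
Cumulative percent of each gene's UMIs in the macrophage gate against the number of cells, ranked from the highest count down (log axis), with all libraries joined. The *Retnla* line rises first, with 6 cells at 50%, and the *Mrc1* line last, with 1198 cells at 50%.

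*Cd163* and *Retnla* were found more often in cells with *Folr2* than in cells without it. For each pair of genes, the share of thinned macrophages with the first gene was compared between cells with and without the second gene in the same pool (exact two-sided sign-flip permutation test over 8 pools, smallest P possible 0.00781). Of 36 pairs, 30 had enough cells, and 11 had an adjusted P below 0.05 over the 30 pairs. Of the 30 pairs, 7 (23.3%) passed with a higher share in cells with the second gene. Pairs of other genes were not counted, so this number has no background to be read against. The calls of *Retnla* by *Folr2* and of *Folr2* by *Arg1* depend on how the adjustment counted 4 pairs with 0 cells with both, as given below. *Cd163* was found in 7.74% ± 4.39 of cells with *Folr2* and in 0.317% ± 0.173 of cells without it, higher in 8 of 8 pools (exact P = 0.00781, adjusted P = 0.0260). There were 22 cells with both, of 60 with *Cd163*, where equal shares would give 1.65. *Retnla* was found in 7.06% ± 6.58 of cells with *Folr2* and 0.329% ± 0.203 of the others (19 cells with both, of 57 with *Retnla*, against 1.54, higher in 7 of 8 pools, exact P = 0.0156, adjusted P = 0.0426). Cells with *Mrc1* more often had *Folr2* (6.38% against 1.61%), *Cd163* (1.47% against 0.273%) and *Retnla* (0.927% against 0.382%), each higher in 8 of 8 pools.

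*Arg1* went with *Spp1*. It was detected in 8.14% ± 3.64 of macrophages with *Spp1* and 2.24% ± 0.481 of those without (78 cells with both against 26.3 at equal shares, 8 of 8 pools, exact P = 0.00781, adjusted P = 0.0260). *Folr2* was also more frequent in cells with *Arg1* (8.01% against 2.35%, 27 cells against 8.51, 7 of 8 pools, exact adjusted P = 0.0426), so *Arg1* and *Folr2* were not exclusive. *Cd163* and *Arg1* were together in 3 cells (0.916% against 0.483%, higher in 3 of 8 pools, exact adjusted P = 0.480). *Nos2* and *Arg1* were seen together in 9 of 12282 cells where equal shares would give 0.505, a difference that did not pass adjustment (2.82% against 0.0818%, higher in 6 of 8 pools, exact adjusted P = 0.0721). *Spp1* with *Mrc1* gave 8.09% and 7.82% (exact adjusted P = 0.877). The 4 pairs that passed in the lower direction had 0 cells with both and under 1 at equal shares, so they cannot be interpreted. With 0 cells with both, their P was bound to be the smallest possible. They were still counted in the adjustment, which lowered the adjusted P of other pairs. The calls at 0.0426, *Retnla* by *Folr2* and *Folr2* by *Arg1*, depend on that and are not firm. No pair passed within whole-tumor or Percoll libraries alone, although *Arg1* by *Spp1* differed by 6.13 and 5.95 points there (exact adjusted P = 0.102 and 0.0703) and *Cd163* by *Folr2* by 8.196 points in whole tumor (exact adjusted P = 0.102). *Folr2* by *Mrc1* differed by 6.22 points in whole tumor and 2.11 in Percoll, and *Cd163* by *Mrc1* by 1.57 and 0.53 points. With a pool left out the smallest P possible was 0.0156, and 0 to 11 pairs passed. The differences were then 6.21 to 8.17 points for *Cd163* by *Folr2*, 5.04 to 7.71 for *Retnla* by *Folr2* and 5.17 to 6.49 for *Arg1* by *Spp1*, against 7.42, 6.73 and 5.90 with the 8 pools.

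**Figure D3:**
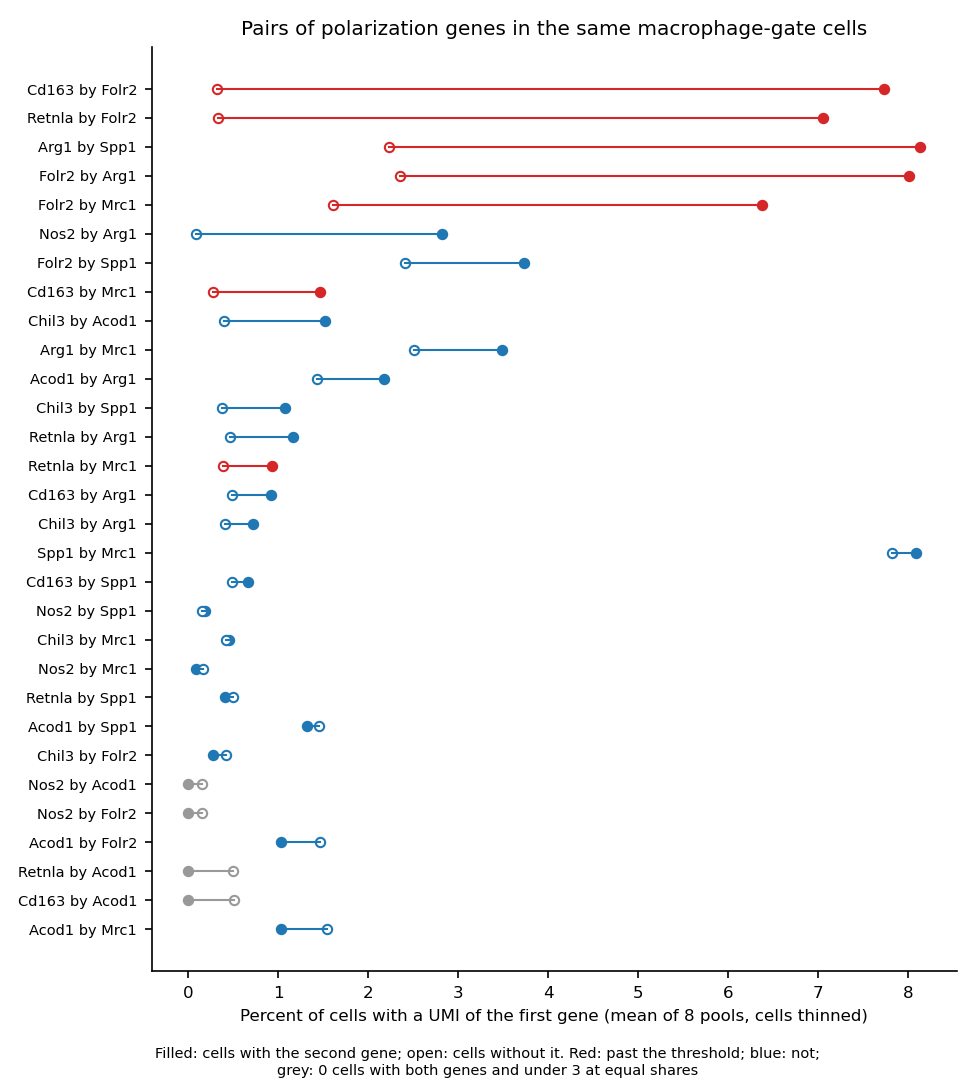
Share of macrophage-gate cells with a gene (percent, thinned to 1000 UMIs, mean of 8 pools) among cells with the second gene (filled) and without it (open), for 30 pairs. Pairs past the threshold are red, and the widest gaps are those of *Cd163* and *Retnla* by *Folr2* and of *Arg1* by *Spp1*.

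Cells with at least 2 UMIs of a gene show the same company by level, given as a description because the cells were chosen by that gene and were deeper than the gate. The 55 cells with *Retnla* (median 5659 UMIs) had 1130 CPM of *Folr2*, 268 of *Cd163* and 1144 of *Mrc1*, where the whole gate had 41.2, 6.64 and 271. The resident-type genes *Lyve1*, *Cd209f* and *Fcna*, chosen after their values were seen, were 472, 360 and 495 CPM in these cells against 8.73, 4.93 and 25.8, and the chemokine *Ccl8* 4300 against 1131 CPM. The 373 cells with *Arg1* had 710 CPM of *Spp1* against 125. The 68 cells with *Chil3* had 64.8 CPM of *Ccl8* and no *Retnla*, and the 21 cells with *Nos2* had 1093 CPM of *Arg1*.

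The vaccine comparison asks whether PancVAX moved the macrophages toward one program. In the macrophage gate 0 of 9 genes passed the threshold for PancVAX, where the background was 0.651% of 11361 genes (74 genes, 71 of them higher). At an unadjusted P below 0.05 there were 4 of 9 genes against 14.7% of all genes, and DESeq2 called 0. The median log2 change of the 9 genes was 0.25, against 0.00047 over all genes.

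**Figure D4:**
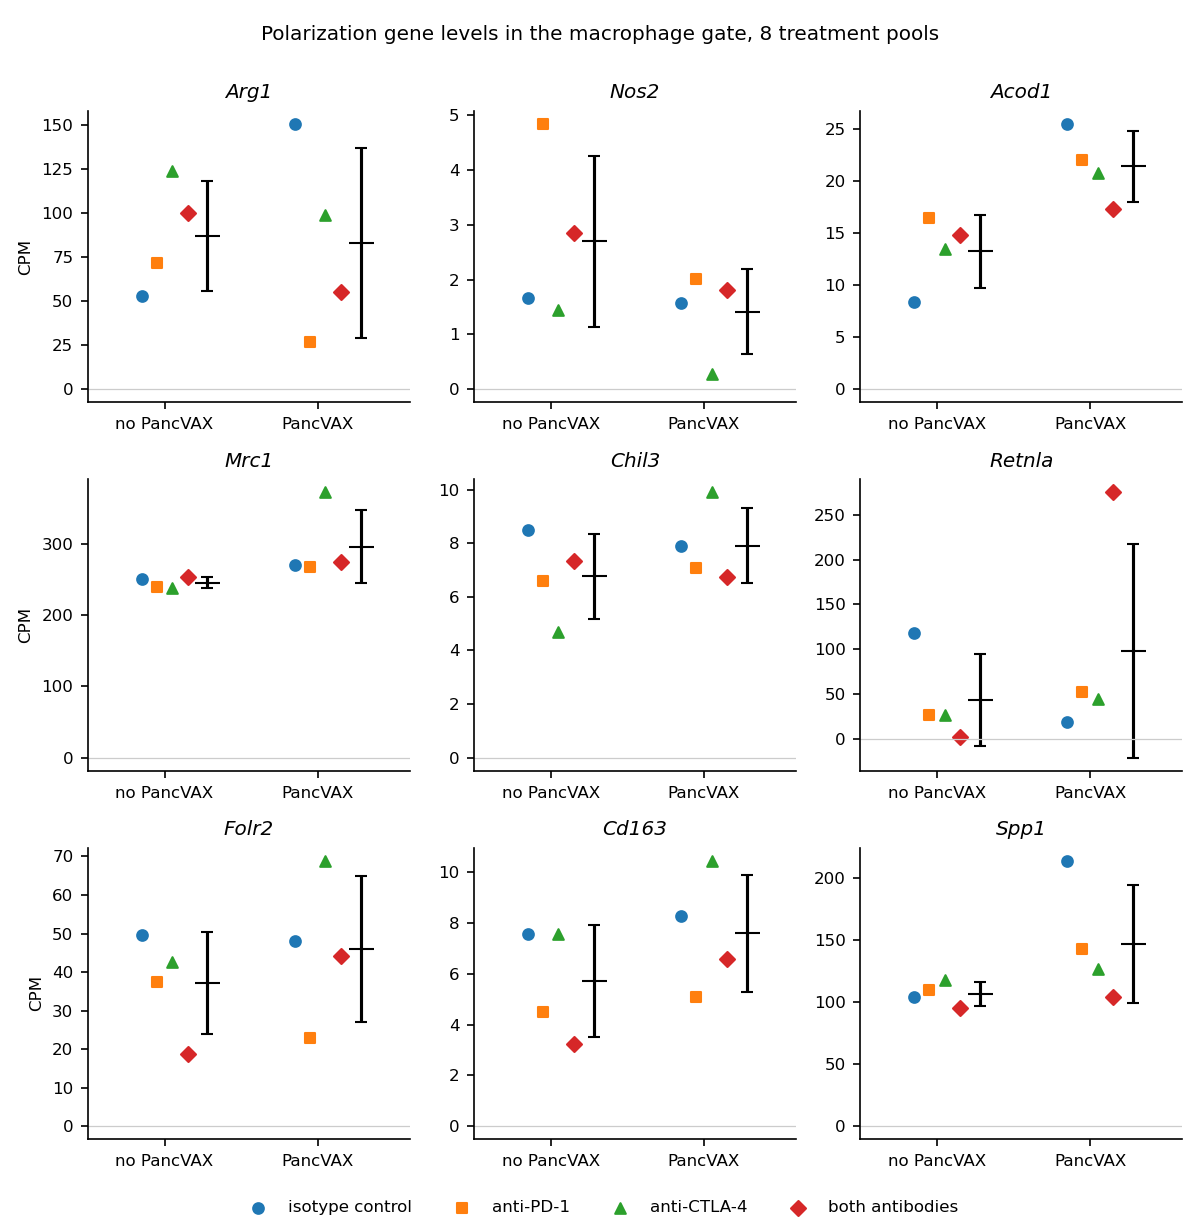
Level of each gene (CPM) in the macrophage gate of the 8 treatment pools, with and without PancVAX, marked by antibody, with mean ± SD of 4 pools. The *Retnla* mean with PancVAX is set by the PancVAX + Anti-PD-1 + Anti-CTLA-4 pool at 275 CPM.

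*Acod1* was 8.34 CPM in Isotype Control, 13.5 in Anti-CTLA-4, 16.4 in Anti-PD-1 and 14.8 in Anti-PD-1 + Anti-CTLA-4, and 25.5, 20.8, 22.0 and 17.3 CPM in the same order with PancVAX added. The log2 difference of 0.63 (SE 0.18) had an adjusted P of 0.139. It was 0.57 in whole-tumor and 0.68 in Percoll libraries, and it passed the threshold when the 16 libraries were fitted (adjusted P = 0.0440) and with no filter on low counts (adjusted P = 0.0122). The fit of 16 libraries used both libraries of each treatment, which may come from the same tumors. Its P therefore need not measure the spread between pools. *Mrc1* was 250, 238, 239 and 253 CPM without and 270, 372, 267 and 274 CPM with PancVAX (log2 difference 0.20, SE 0.084, adjusted P = 0.294), and it differed by 0.32 in whole-tumor and 0.04 in Percoll libraries.

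*Nos2* had 1.67, 1.44, 4.84 and 2.86 CPM without and 1.58, 0.275, 2.00 and 1.81 CPM with PancVAX in that order (log2 difference −0.99, SE 0.34, adjusted P = 0.196). The groups overlapped, and a pool had as few as 2 UMIs. *Arg1* had 52.9, 124, 71.4 and 99.8 CPM without and 151, 99.0, 26.98 and 55.4 CPM with PancVAX (log2 difference −0.25, SE 0.34, adjusted P = 0.789). The highest and the lowest *Arg1* pool were both vaccinated. Without the PancVAX pool the difference was −0.78 and passed (adjusted P = 0.0380). *Spp1* differed by 0.36 (adjusted P = 0.213), with −0.16 in whole-tumor and 0.94 in Percoll libraries. *Cd163*, *Folr2*, *Chil3* and *Retnla* differed by 0.38, 0.25, 0.18 and 0.98 with adjusted P of 0.354 to 0.737. The summed level of 4 T cell genes in the macrophage gate was 4.57 to 8.34 CPM without and 10.7 to 16.96 CPM with PancVAX. That of 4 neutrophil genes was 64.4 to 177 and 107 to 182 CPM, that of 5 tumor or stromal genes 35.6 to 63.1 and 50.6 to 91.4 CPM, and that of 2 B cell genes 25.2 to 30.7 and 21.8 to 27.7 CPM. *Acod1* was higher in neutrophils and *Spp1* in the non-immune gate than in macrophages, and the part of such markers in these values was not tested.

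Neither antibody moved a gene past the threshold in the macrophage gate (0 of 9 each, background 0% each, 5 and 1 of 9 at an unadjusted P below 0.05 against 5.99% and 6.12% of all genes, and 0 by DESeq2). *Cd163* was 7.58, 7.58, 8.26 and 10.4 CPM in the pools without and 4.50, 3.23, 5.09 and 6.59 CPM in those with anti–PD-1. The log2 difference was −0.81 (SE 0.18, adjusted P = 0.586), but it was −1.35 in whole-tumor and 1.503 in Percoll libraries. *Folr2* differed by −0.77 (SE 0.22, adjusted P = 0.807), −0.82 in whole-tumor and −0.27 in Percoll libraries. With no filter on low counts both genes passed (adjusted P = 0.0296 for *Cd163* and 0.0154 for *Folr2*). The thinned share of cells with *Folr2* was 1.67% ± 0.713 with and 3.36% ± 1.05 without anti–PD-1 (exact permutation P = 0.0286, the smallest that 4 against 4 allows). This was the lowest P among 27 such comparisons of the 9 genes and 3 agents. Adjusted over the 9 genes of the agent it was 0.257 (exact permutation test), and 0 of the 27 passed. A single gene at the smallest P could not pass this adjustment, so the 0 does not show that shares were unchanged. *Arg1* differed by −0.79 with anti–PD-1 (adjusted P = 0.822) and by 0.39 with anti–CTLA-4 (adjusted P = 0.886).

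The monocyte, other mononuclear phagocyte and neutrophil gates gave no member past the threshold either. In the monocyte gate it was 0 of 5 genes tested for each agent (backgrounds 0.0459% for PancVAX, 0.0459% for anti–PD-1 and 0% for anti–CTLA-4, with 2, 0 and 1 of 5 at an unadjusted P below 0.05 against 8.43%, 5.72% and 5.65% of all genes, and none by DESeq2). *Arg1* in monocytes was 122 CPM in Isotype Control, 714 in Anti-CTLA-4, 749 in Anti-PD-1 and 861 in Anti-PD-1 + Anti-CTLA-4, and 182, 697, 6.82 and 324 CPM in the same order with PancVAX. The PancVAX difference was −1.07 (SE 0.46, adjusted P = 0.527) and the anti–CTLA-4 difference 1.42 (SE 0.45, adjusted P = 0.856). In whole-tumor libraries alone the first was −1.64 and passed (adjusted P = 0.0458) and in Percoll libraries −0.49 (adjusted P = 0.909), and without the Anti-PD-1 pool the second was 2.64 and passed (adjusted P = 0.0032). Both were called with no filter on low counts (adjusted P = 1.35e-07 and 4.45e-16). The pools with and without either agent overlapped, so these P values do not measure the spread between pools. *Chil3* was 920 to 1106 CPM with and 623 to 853 CPM without PancVAX (log2 difference 0.34, adjusted P = 0.395). In other mononuclear phagocytes 0 of 5 genes passed (0.0659%, 0.0988% and 0%, with 1 of 5 for each agent at an unadjusted P below 0.05 against 7.94%, 5.01% and 4.58% of all genes), where *Arg1* differed by 1.64 with anti–PD-1 (adjusted P = 0.0612) and 1.83 with anti–CTLA-4 (adjusted P = 0.0843). In neutrophils 0 of 3 genes passed (0.196%, 0.154% and 0%, with 0, 1 and 1 of 3 at an unadjusted P below 0.05 against 7.37%, 5.82% and 4.61% of all genes), and *Acod1* differed by 0.05 with PancVAX, with 1693 to 3167 CPM over pools.

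The PancVAX difference itself was compared between macrophages and monocytes. For *Arg1* it was higher in macrophages by 0.78 (SE 0.17, adjusted P = 0.0047) and for *Spp1* by 0.81 (SE 0.18, adjusted P = 0.0035), 2 of the 5 genes that passed the filter in both gates, against a background of 0.46% of 4350 genes. The macrophage level of *Arg1* was above the monocyte level in the PancVAX + Anti-PD-1 pool and below it in the others. Its SE of 0.17 and its P do not measure that spread between pools. DESeq2 (1.29 and 0.93, adjusted P = 0.9999 for both) and thinned counts (0.76 and 0.57, adjusted P = 1 for both) did not call either gene. Each of the pools Anti-PD-1, PancVAX alone, PancVAX with Anti-PD-1 and PancVAX with both antibodies ended the *Arg1* call when left out (0.35 to 0.63). For *Spp1* these were Anti-PD-1, both antibodies without vaccine, PancVAX with Anti-PD-1 and PancVAX with both antibodies (0.10 to 0.50). Between preparations 0 of 9 genes differed in their PancVAX effect (background 0%, 3 of 9 at an unadjusted P below 0.05 against 5.02% of all genes, and 0 by DESeq2). With no filter on low counts *Arg1* (0.80, adjusted P = 0.0012) and *Spp1* (1.11, adjusted P = 0.0455) were higher in Percoll by this measure, and without the PancVAX + Anti-PD-1 + Anti-CTLA-4 pool *Spp1* was (1.89, adjusted P = 1.73e-05).

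The share of mononuclear phagocytes in the macrophage gate was 91.8% to 94.8% over pools and differed by 0.0553 percentage points with PancVAX (exact permutation P = 0.971), by 1.08 with anti–PD-1 (P = 0.2) and by 0.447 with anti–CTLA-4 (P = 0.543). Among the lists of related genes, 3 of 20 hypoxia and matrix genes were higher in macrophages with PancVAX, against 0.651% of all genes called in either direction, namely fibronectin *Fn1* (log2 difference 0.95, adjusted P = 0.0242), thrombospondin *Thbs1* (0.52, adjusted P = 0.0242) and the activin subunit *Inhba* (1.51, adjusted P = 0.0319). None of the 74 genes called with PancVAX was left, however, when the Anti-CTLA-4 pool was omitted, when Percoll libraries were fitted alone or when cells in more than 1 gate were kept. In the lists for classical activation (18 genes tested), alternative activation (15), arginine and polyamine metabolism (18), resident-type macrophages (15) and receptors and transcription factors (25), 0 genes passed. The median of markers of other cells was 0.56 over 13 genes, above the lists named here, and its part in them was not tested.

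Preparation was compared in the macrophage gate, 8 libraries against 8 with treatment as a block. Percoll macrophages had less of both resident-type receptors, 2 of 9 genes past the threshold and both lower, against a background of 3.59% of 10610 genes (1.25% lower). *Folr2* was 60.7, 55.3, 37.1, 85.8, 20.6, 66.7, 44.3 and 59.9 CPM in the whole-tumor libraries and 32.6, 32.6, 6.04, 32.5, 17.1, 16.2, 28.3 and 23.7 CPM in the Percoll libraries, both in the order PancVAX alone, PancVAX with both antibodies, with Anti-PD-1 and with Anti-CTLA-4, then without vaccine both antibodies, Anti-CTLA-4, Anti-PD-1 and Isotype Control. It was lower in Percoll in 8 of 8 treatments (log2 difference −1.12, SE 0.17, adjusted P = 0.00035), was also called by DESeq2 (adjusted P = 7.14e-08) and stayed between −1.24 and −0.99 under 13 alternatives. *Cd163* was 9.04 ± 4.70 CPM in whole tumor and 2.97 ± 1.598 CPM in Percoll, lower in 7 of 8 treatments (log2 difference −1.37, SE 0.40, adjusted P = 0.0317). DESeq2 gave *Cd163* no adjusted P. The edgeR call was lost without each of the pools PancVAX, PancVAX + Anti-CTLA-4, Anti-CTLA-4 and Isotype Control (−1.27 to −1.09, adjusted P = 0.0792 to 0.107).

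*Mrc1* was lower in Percoll in 8 of 8 treatments (308 ± 51.0 against 221 ± 38.9 CPM, adjusted P = 0.00096), with a log2 difference of −0.42 under the limit of 0.5. *Acod1* was higher in 7 of 8 treatments (15.4 ± 4.84 against 19.7 ± 6.39 CPM, log2 difference 0.39, adjusted P = 0.0272), also under the limit. Over all cells of a preparation *Acod1* was 3.27 CPM in whole tumor and 7.18 CPM in Percoll in T and NK cells and 1651 and 2867 CPM in neutrophils, and the part of these levels in the macrophage value was not tested. *Arg1* was 87.7 ± 43.7 and 82.1 ± 42.6 CPM and higher in 4 of 8 treatments (log2 difference −0.03, SE 0.11, adjusted P = 0.890). *Spp1* and *Chil3* were higher by 0.60 and 0.59 without passing (adjusted P = 0.171 and 0.0938). With no filter on low counts both were called (adjusted P = 4.01e-18 and 0.0072). *Spp1* was 102 ± 28.4 and 161 ± 101 CPM, higher in Percoll in 5 of 8 treatments and lower in 3. Its P without the filter does not measure that spread. *Retnla* was 55.3 ± 44.1 and 86.7 ± 156 CPM, levels that rested on few cells, and *Nos2* differed by 0.28 (SE 0.51). Neither was resolved.

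**Figure D5:**
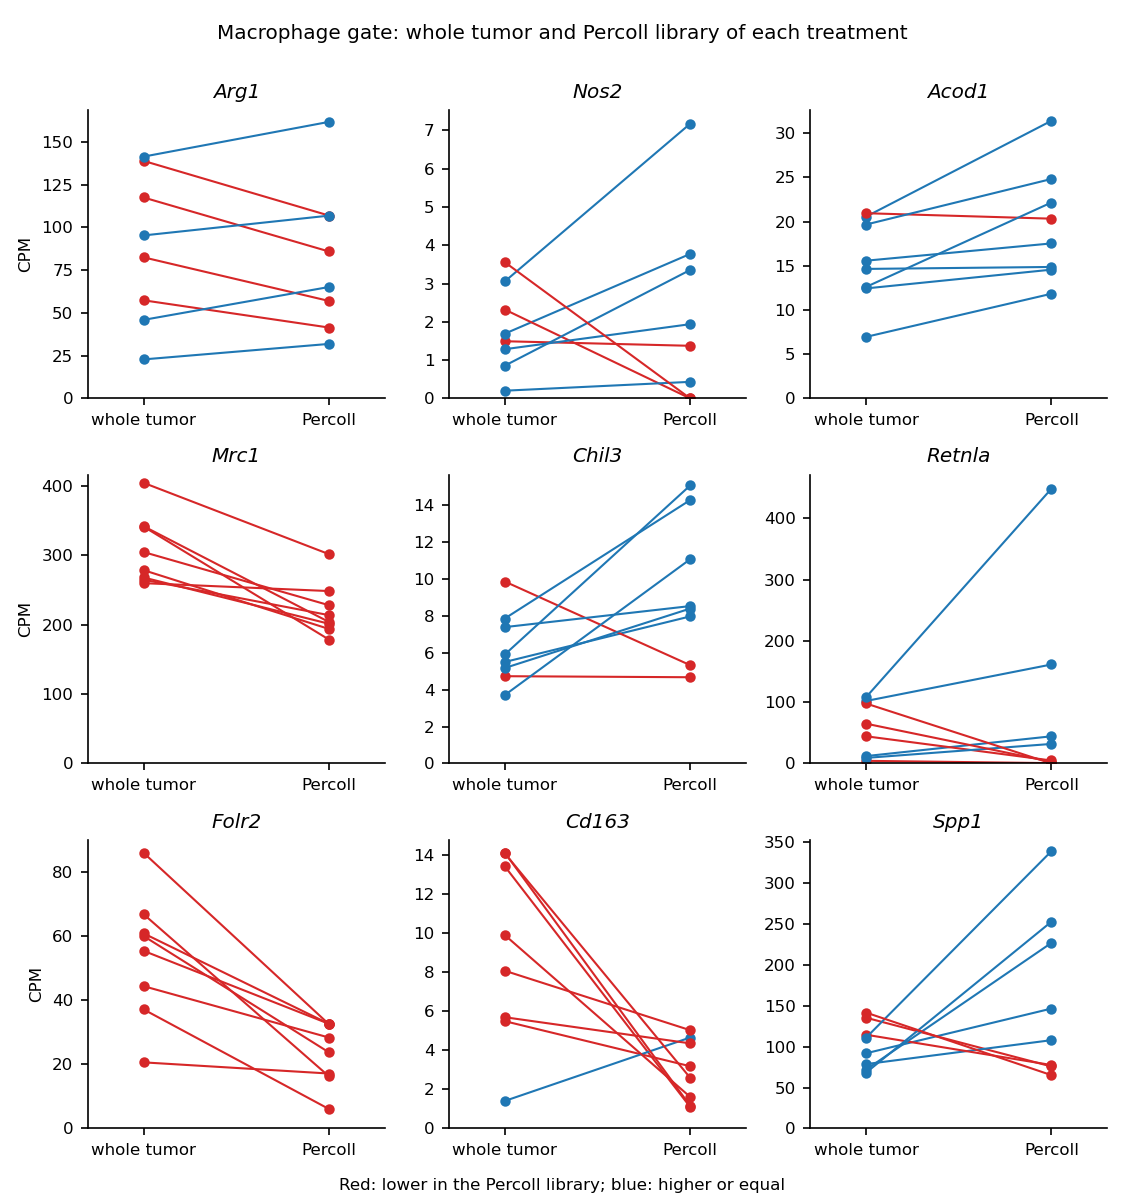
Level of each gene (CPM) in the macrophage gate of whole-tumor and Percoll libraries, with a line joining the 2 libraries of a treatment, red where Percoll is lower and blue where it is higher or equal. All 8 lines of *Folr2* and *Mrc1* and 7 of 8 of *Cd163* fall.

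The lists of related genes also differed by preparation, and the genes named from them were chosen after their values were seen. They were counted over the genes that passed the filter in both preparations, of which 219 of 9853 were higher and 98 lower in Percoll (3.22% called). Of 11 resident-type genes 4 were lower in Percoll and 0 higher, among them *Fcna* (−1.13), with a list median of −0.44 against −0.0022 over these genes. *Lyve1* and *Cd209f* passed the filter through whole tumor alone. Higher in Percoll were 3 of 17 classical activation genes (*Tnf* 1.37, *Socs3* 0.58, *Il1a* 0.52), 2 of 14 alternative activation genes (*Il10* 1.25, *Ccl24* 0.56), 3 of 17 of arginine and polyamine metabolism (*Ass1* 0.68, *Gch1* 0.58, *Odc1* 0.52) and 4 of 19 hypoxia and matrix genes (*Mmp12* 0.72, *Vegfa* 0.70, *Hilpda* 0.57, *Slc2a1* 0.54), with 0 lower in each. Among 9 markers of other cells only *Col1a1* passed, lower in Percoll (−1.33). Whether density selected cells or the batch set these values cannot be told apart.

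Genes that followed each member most closely were ranked by Pearson correlation of log2(CPM + 1) over 48 columns, the 3 mononuclear phagocyte gates in 16 libraries. The columns share libraries and gates, so the values are a description. *Chil3* had the closest company, *Gda*, *Emilin2* and *Shisa5* (r = 0.91, 0.91 and 0.90). *Mrc1* went with *Lgmn*, *Csf1r* and *Ctsc* (0.85, 0.84 and 0.83), *Folr2* with *Lair1*, *Fcgr4* and *Apoe* (0.78, 0.78 and 0.76), *Retnla* with *C1qb*, *C1qa* and *C1qc* (0.81, 0.80 and 0.79), and *Cd163* with *C1qb*, *Rgs10* and *C1qa* (0.75, 0.74 and 0.74). The C1q genes and *Csf1r* set the gates. *Acod1* went with *Cxcl2*, *Arf4* and *Nfkbia* (0.73, 0.69 and 0.68), and *Arg1* with *Bnip3*, *Fam162a* and *Pf4* (0.64, 0.61 and 0.60). *Spp1* (*Emp1*, *Nupr1* and *Zfp36l1*, 0.58, 0.57 and 0.53) and *Nos2* (*Mif*, *Fth1* and *Cox5b*, 0.57, 0.57 and 0.52) had the weakest.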

How the data were processed

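Single-cell RNA was measured in 16 libraries, made with a 10x Genomics Chromium Single Cell 5′ kit and sequenced on a NextSeq 500. The deposited values are whole-number UMI counts per gene and cell, which the authors made with Cell Ranger 4.0.0 and assembled with Seurat (genome build mm10 in the submitters' processing notes). Libraries were matched to labels by the number in the sample description and the barcode suffix, which the labels do not state to be the same number. T cell receptor files were not used here. One gene of the gating list is not reported here.

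Cells had 200 to 3000 genes, 1000 to 10000 UMIs, under 10% mitochondrial UMIs and no hemoglobin UMI. Cells in more than 1 gate (3131) were left out as possible doublets, and 10244 cells met no gate. Median UMIs per passing cell were 2782 to 4193 over libraries. UMIs were summed per gate and pool and tested in edgeR 4.0.16 (R 4.3.3, quasi-likelihood, TMM scaling, filterByExpr, Benjamini-Hochberg adjustment over all genes tested, called at an adjusted P below 0.05 and a log2 difference beyond 0.5), with the 3 agents as terms, or with treatment or pool as a block for preparation and gate. The filter kept 9 of 9 genes in macrophages, 5 in monocytes, 5 in other mononuclear phagocytes and 3 in neutrophils. All tests were two-sided. The study tested single cells, which are not replicates, so sums were used here. Shares of cells came from cells thinned to 1000 UMIs, since depth differs, and cover counting error only within a pool. Code was tested on simulated data. Alternatives were DESeq2 1.42.0, other scaling, filters, gates and left-out pools or libraries, and those for the 2 differences between effects were chosen after seeing the data. Calls made only with no filter on low counts can have P values smaller than the spread between pools allows, so they are not read as results. The genes named are the 9 genes, up to 3 rises and 3 falls per list with PancVAX in macrophages, and the 3 closest followers of each gene. Other genes named, as in the Percoll lists, were chosen after their values were seen. The 9 genes and all lists were chosen with earlier results of these data known.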

Additional observations from a re-analysis of the deposited data

Results flagged for a closer look

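Among 102 groups of 4 pools or 8 libraries examined, 9 held a value that stood apart from the others of its group by Dixon's ratio, where chance gives about 1 in 20 for a single group. The groups shared pools, so a value could be flagged more than once. *Nos2* in macrophages was 0.275 CPM (2 UMIs) in the PancVAX + Anti-CTLA-4 pool, where the other pools without anti–PD-1 had 1.44 to 1.67 CPM. It was 4.84 CPM in the Anti-PD-1 pool against 1.58 to 2.00 CPM in the other pools without anti–CTLA-4. *Mrc1* was 372 CPM in the PancVAX + Anti-CTLA-4 pool, and the other PancVAX pools had 267 to 274 CPM. *Retnla* was 275 CPM in the PancVAX + Anti-PD-1 + Anti-CTLA-4 pool, against 19.3 to 52.9 CPM in the other PancVAX pools and 2.11 to 45.1 CPM in the other anti–CTLA-4 pools. Its Percoll library had 448 CPM where the other Percoll libraries had 0 to 162 CPM, and 4 cells of that library held 1265 *Retnla* UMIs.

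In the monocyte gate the Anti-PD-1 pool stood apart for 3 genes. *Acod1* was 76.7 CPM and *Mrc1* 110 CPM there, against 27.8 to 34.1 and 60.8 to 68.4 CPM in the other pools without anti–CTLA-4. *Chil3* was 623 CPM, against 828 to 853 CPM in the other pools without PancVAX.

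The PancVAX difference was higher in macrophages than in monocytes for *Arg1* (−0.25 and −1.07, by 0.78 on the log2 scale in the joint fit) and *Spp1* (0.36 and −0.43, by 0.81), tested as a difference of effects in edgeR (adjusted P = 0.0047 and 0.0035). Both calls were lost under DESeq2 (1.29 and 0.93) and in thinned cells (0.76 and 0.57). The P for *Arg1* does not measure the spread between pools. The monocyte value of *Arg1* in the PancVAX + Anti-PD-1 pool was 1 UMI.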

How the results depend on the processing

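Counts of genes called depended on settings where replication was thin. The 74 genes called with PancVAX in macrophages became 322 with no filter on low counts, 15 with no upper limits, 8 in whole-tumor libraries, 0 in Percoll libraries, 8 with a C1q minimum of 10 and 0 with cells of more than 1 gate kept, and 0 to 216 when each pool or library was left out (0 without the Anti-CTLA-4 pool). Anti–PD-1 in macrophages went from 0 to 44 with no filter, 10 with no upper limits and 1 each in whole-tumor libraries, with a C1q minimum of 3 and with C1q scaled to depth (left-out range 0 to 16). Anti–CTLA-4 went from 0 to 41 with no filter, 2 under DESeq2 and 1 each in whole-tumor libraries, Percoll libraries, with C1q scaled to depth and in thinned cells (0 to 21).

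In monocytes the PancVAX count of 2 became 23 with no filter, 14 with mixed cells kept, 5 in whole-tumor libraries and 0 under DESeq2, with 16 libraries, in Percoll libraries and in thinned cells (0 to 7). Anti–PD-1 went from 2 to 21 with no filter and 4 with no upper limits (1 to 5), and anti–CTLA-4 from 0 to 18 with no filter (0 to 4). For PancVAX in other mononuclear phagocytes 2 became 78 with no filter, 1 under DESeq2 and 0 with no upper limits (0 to 14), and in neutrophils 14 became 71 with no filter (8 to 53). The Percoll count of 381 was 210 under DESeq2, 289 without the treatment block and 338 to 462 with a pool left out. The difference of PancVAX effects between gates went from 24 to 0 under DESeq2 and 6 in thinned cells (12 to 29), and between preparations from 0 to 15 with no filter and 1 each under DESeq2 and with no upper limits (0 to 7). Pairs called together were 19 in cells not thinned and 0 in either preparation alone (0 to 11). The PancVAX difference in macrophage share was −0.260 points in whole-tumor libraries, −0.322 with no upper limits, −0.556 with a C1q minimum of 10 and −0.499 to 0.519 with a pool left out. In these cases the cause was not tested. Agent fits on 1 preparation hold 8 libraries in place of 8 pools, with fewer cells in each.

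Of 2714 values of single genes or pairs under an alternative, 2386 kept direction and call, 90 lost a call, 25 gained one, 4 turned with a call and 209 changed sign with no call on either side. *Nos2* by *Acod1* turned to 0.774 points with no upper limits and 2.50 not thinned, *Acod1* by *Spp1* to 1.26 not thinned, and *Nos2* by *Spp1* ranged from −0.157 to 0.0884 with a pool left out. *Acod1* passed for Percoll with no upper limits (0.53), and *Chil3* without the Anti-PD-1 + Anti-CTLA-4 pool (0.83). *Folr2* in Percoll and *Mrc1*, *Chil3*, *Arg1* and *Acod1* between macrophages and monocytes kept their calls under the alternatives run. Library labels carry no replicate numbers that pair treatments, so the block on treatment was the pairing available. Few UMIs limit *Nos2* and *Cd163*, and few cells limit every monocyte value.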
